A study of Rattus norvegicus with 4 samples.

Results

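Fatty acid synthesis, desaturation and elongation are described here by 10 genes: Acaca, Fasn, Scd, Scd2, Fads1, Fads2, Fads3, Elovl1, Elovl5 and Elovl6. Of these, 9 were found by their symbol among the 16290 genes of the table, and Elovl6 was not analysed here. The genes were measured in cultured cardiomyocytes, the contractile cells of the heart, taken from rats at postnatal day 3. Genes were delivered to the cells by adenovirus, a virus used as a carrier. The vector encoded Pdk3 in the libraries Pdk3 1 and Pdk3 2, and mock, the control, in the libraries Mock 1 and Mock 2. All 4 libraries share the serum-containing culture medium. Pdk3 is a kinase that phosphorylates and thereby inhibits the pyruvate dehydrogenase complex, which turns pyruvate into mitochondrial acetyl-CoA. The sources used here do not give the species of the Pdk3 sequence, the promoter driving it or the time between vector and harvest. By its title, the series concerns glycolysis and the proliferation of cardiomyocytes.

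Fatty acids are built in the cytosol from acetyl-CoA. Acetyl-CoA carboxylase makes malonyl-CoA from it, fatty acid synthase joins these units into palmitate, and elongases of the endoplasmic reticulum lengthen the chain. Stearoyl-CoA desaturases place the first double bond of saturated chains, and the desaturases of Fads1 and Fads2 work on dietary polyunsaturated chains. Many of these genes are textbook targets of the SREBP transcription factors. The heart turns towards burning fatty acids after birth, while growing cells need them for membranes.

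The 4 desaturase genes with the highest Pdk3-to-mock ratios lie in 2 clusters on chromosome 1, and their upstream sequences are shown because these genes stood highest together. Each line gives 250 bases ahead of the RefSeq transcription start (build GRCr8), 5′ to 3′ on the strand of the gene, with the letters CCAAT on either strand, the core of the NF-Y motif, in capitals.
Scd, chr1:253231732-253231981, minus strand: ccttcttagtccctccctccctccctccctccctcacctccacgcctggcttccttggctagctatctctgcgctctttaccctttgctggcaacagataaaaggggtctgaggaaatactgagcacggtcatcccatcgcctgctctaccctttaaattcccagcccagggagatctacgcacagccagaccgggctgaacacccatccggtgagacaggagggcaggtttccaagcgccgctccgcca
Scd2, chr1:253118127-253118376, plus strand: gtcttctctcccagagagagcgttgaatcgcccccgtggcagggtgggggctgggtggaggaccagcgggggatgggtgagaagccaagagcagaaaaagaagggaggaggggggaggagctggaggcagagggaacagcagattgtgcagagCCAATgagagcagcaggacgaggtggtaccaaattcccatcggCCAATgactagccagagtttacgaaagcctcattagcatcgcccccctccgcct
Fads1, chr1:216252442-216252691, plus strand: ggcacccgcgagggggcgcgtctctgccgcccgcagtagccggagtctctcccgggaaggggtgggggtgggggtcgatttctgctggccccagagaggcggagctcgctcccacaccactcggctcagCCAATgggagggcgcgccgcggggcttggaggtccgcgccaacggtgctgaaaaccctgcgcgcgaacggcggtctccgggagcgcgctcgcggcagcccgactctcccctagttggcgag
Fads2, chr1:216172034-216172283, minus strand: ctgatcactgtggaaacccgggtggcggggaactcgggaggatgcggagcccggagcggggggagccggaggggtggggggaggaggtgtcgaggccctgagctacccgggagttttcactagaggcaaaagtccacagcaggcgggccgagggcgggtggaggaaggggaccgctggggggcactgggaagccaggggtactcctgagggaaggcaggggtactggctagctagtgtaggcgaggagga
RefSeq promoters were matched for 7 members. CCAAT occurred in 4 of the 7 (Scd2, Fads1, Fads3 and Elovl5), against 34% of 33469 rat promoters. Scd2, Fads3 and Elovl5 had 2 matches each. The Sp1 core GGGCGG occurred in 3 of the 7, the Fads genes, against 30.5% of all promoters. This core holds only G and C, and the windows of Fads1, Fads2 and Fads3 are rich in both. Their G and C shares are 73.2%, 68% and 75.6%, against a median of 51.2% over all promoters. The E-box CACGTG occurred in Elovl5 alone among the 7, against 5.59% of all. Also searched were the sterol regulatory element as TCACNCCAC, the carbohydrate response element as CACGTG repeated after 5 bases, the DR4 element of nuclear receptors as AGGTCA repeated after 4 bases, and E2F sites as TTTCCCGC or TTTGGCGC. All motifs were searched on both strands, and these last 4 kinds had no match in the 7 windows. Over all promoters their shares were 0.974% for the sterol element, 0% for the carbohydrate element, 0.00299% for DR4 and 1.21% for E2F. A missing match says only that these letters are not in this window.

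The authors scaled the read counts of each gene between libraries and rounded them. These normalised counts summed to 4476649 and 4470251 in the Pdk3 libraries and to 4448199 and 4454567 in the mock libraries. Pdk3 itself had 1218 and 1177 normalised counts in the Pdk3 libraries, against 396 and 411 in the mock libraries. Both Pdk3 libraries were the higher ones. The labels do not say whether the 2 libraries of a group came from separate cultures or animals, so the spread between them may be technical. Within each pair, squared differences averaged 0.646 (Pdk3) and 0.576 (mock) of what counting noise alone would give. Cardiomyocyte markers summed to between 24519 and 24926 in the Pdk3 libraries, against 23892 to 24113 in the mock libraries, over 9 genes. Ryr2, with the most counts of these, had a log2 fold change (Pdk3 minus mock) of -0.06. The others had values between 0.04 and 0.12. In such bulk samples, fewer cells of a type and less RNA per cell cannot be told apart.

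The members were chosen by their measured counts in the Pdk3 libraries against the mock libraries, with that comparison already known, so their values are given as a description, without a test. Fold changes and their standard errors (SE) come from the limma fit of all 12838 genes tested, on the log2(value + 1) scale, as Pdk3 minus mock. A gene entered that fit with at least 10 normalised counts in at least 2 libraries, and all 9 members in the table did. In that fit, 7 of the 9 were higher at an adjusted p under 0.05 and 0 were lower. The shares over the whole fit were 11.7% higher and 11.3% lower. With p floored at counting noise (the exact binomial p of the summed counts where it is larger), 7 of the 9 were higher and 0 lower, against 8.04% and 8% of all. For 8 of the 9, both Pdk3 libraries lay above both mock libraries, which was the case for 29.9% of all genes tested. Since the choice of members used this comparison, nothing is read from these counts. The median log2 fold change of the 9 was 0.36, against -0.01 over all genes tested. Summed over the 9, the members had 8572 and 8579 normalised counts in the Pdk3 libraries, against 6324 and 6227 in the mock libraries.

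**Figure D1:**
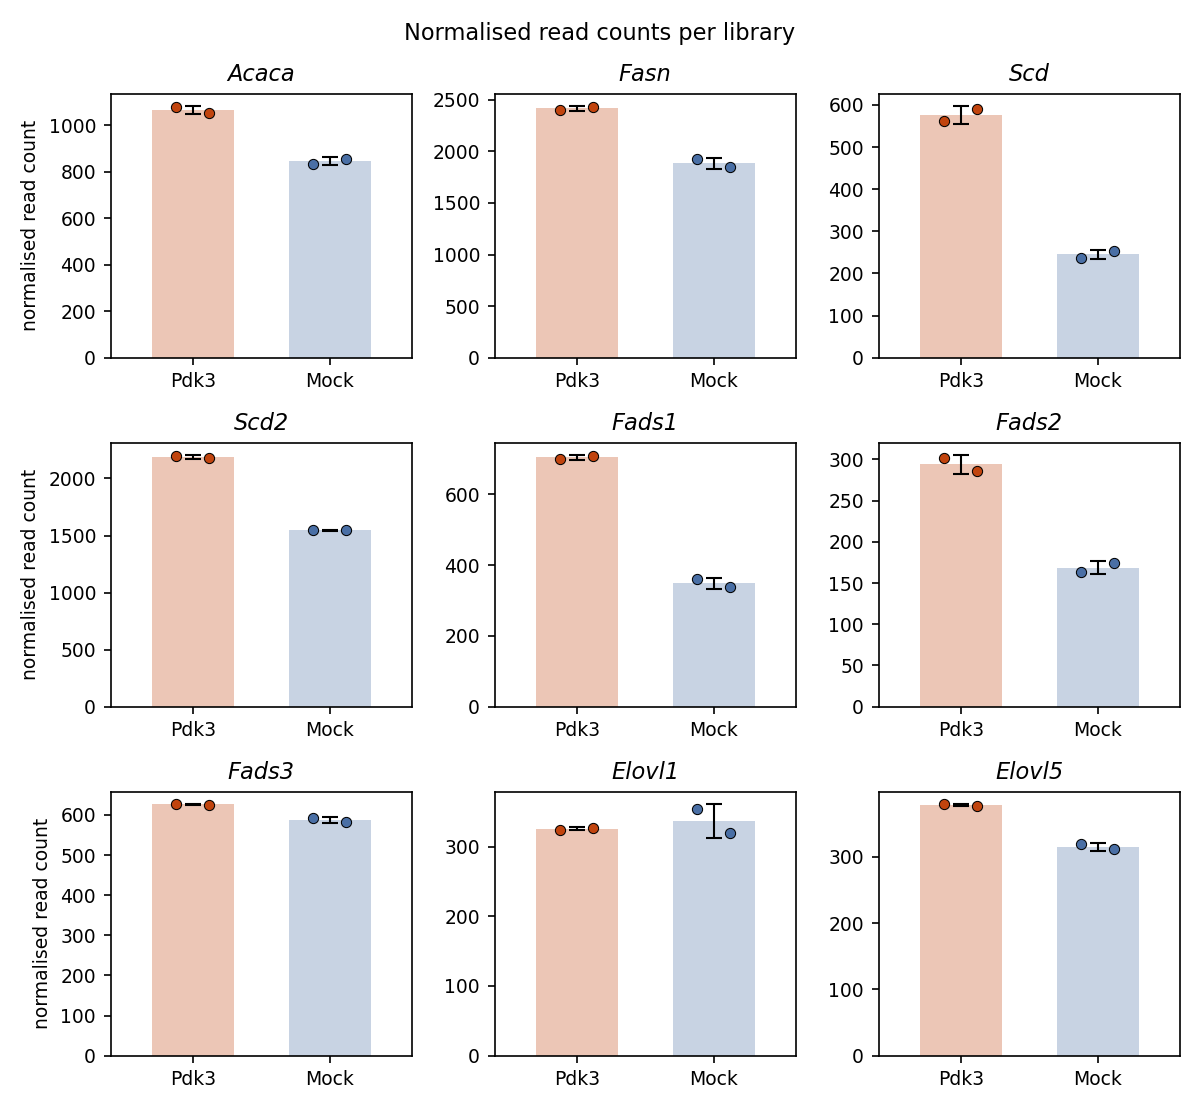
Normalised read counts (vertical axes, each starting at 0) of the 9 members in the Pdk3 libraries (left) and the mock libraries (right). Points are libraries, bars are means and error bars are SDs (n = 2 each). The groups overlap for Elovl1 and are separate for the other 8 genes.

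The entry steps stood moderately higher with Pdk3. Acaca (ENSRNOG00000034013, chr10:71536533-71719910, plus strand, rn6) encodes the cytosolic acetyl-CoA carboxylase. It had 1077 and 1054 normalised counts in the Pdk3 libraries, against 833 and 856 in the mock libraries. Both Pdk3 libraries were higher than both mock libraries, a gap of 198 counts at its narrowest. The log2 fold change was 0.34 ± 0.03 (SE), a level 26.2% higher. Fasn (ENSRNOG00000045636, chr10:109987735-110005901, minus strand), the fatty acid synthase, had 2402 and 2433 counts with Pdk3, against 1922 and 1849 with mock. The groups were again separate, and the log2 fold change was 0.36 ± 0.02, or 1.28-fold. The change was thus nearly the same size in these consecutive enzymes. The ratio of Fasn to Acaca counts within a library was 2.23 and 2.31 in the Pdk3 libraries, against 2.31 and 2.16 in the mock libraries, and these ranges overlap. Such ratios compare libraries, not the levels of the genes, because the counts are not per length.

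The second carboxylase gene moved the other way. Acacb encodes the mitochondrial carboxylase, whose malonyl-CoA restrains fatty acid import for oxidation, and it is not one of the 10. It fell slightly, with 2084 and 2112 counts in the Pdk3 libraries, against 2205 and 2224 in the mock libraries (log2 fold change -0.08 ± 0.02, limma adjusted p = 0.0185). The Acaca-to-Acacb ratio of counts was therefore 0.517 and 0.499 with Pdk3, against 0.378 and 0.385 with mock, with no overlap. Without an intensity trend or without a filter on low values the call of Acacb ended.

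Of the 9 members, Scd had the highest fold change, and its paralog Scd2 came after Fads1 and Fads2. Scd (ENSRNOG00000013552, chr1:264160129-264172729, minus strand), which makes oleate and palmitoleate from saturated chains, had 561 and 591 counts in the Pdk3 libraries, against 237 and 253 in the mock libraries. The lowest Pdk3 library lay 308 counts above the highest mock library. The mean was 576.0 ± 21.2 with Pdk3, against 245.0 ± 11.3 with mock (SD, n = 2 each), a 2.35-fold difference (log2 1.23 ± 0.05 SE). The counts alone give this ratio a 95% interval of 2.11 to 2.62 (exact binomial, values taken as reads, counting error only). Among all genes tested its fold change ranked 96 from the top.

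Scd2 (ENSRNOG00000046005, chr1:264059374-264072433, plus strand) encodes a second enzyme of the same reaction. It had 2200 and 2176 counts with Pdk3, against 1544 and 1545 with mock. The mock libraries were nearly identical, and the Pdk3 libraries stood 1.42-fold above them (log2 0.50 ± 0.02, counting interval of the ratio 1.35 to 1.48). The Scd-to-Scd2 ratio of counts was 0.255 and 0.272 with Pdk3, against 0.153 and 0.164 with mock. Scd4, between them on the chromosome, had 0 counts in both Pdk3 libraries, against 4 and 0 in the mock libraries, too few for a fold change. The sources used here do not say how reads shared by near-identical copies were counted.

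Of the Fads desaturases, the pair that makes polyunsaturated fatty acids stood high and the third did so far less. Fads2 (ENSRNOG00000020440, chr1:226114413-226152524, minus strand), which takes the first desaturation step of linoleate and linolenate, had 302 and 286 counts in the Pdk3 libraries, against 163 and 174 in the mock libraries. Its log2 fold change was 0.80 ± 0.06, or 1.74-fold. Fads1 (ENSRNOG00000020480, chr1:226234074-226249138, plus strand), which takes the later step to arachidonate and eicosapentaenoate, had 700 and 709 counts with Pdk3, against 360 and 337 with mock. Its log2 fold change was 1.01 ± 0.04, or 2.02-fold, and the groups were 340 counts apart at the nearest libraries. Counting alone gives the ratio of Fads1 an interval of 1.84 to 2.22 and that of Fads2 one of 1.52 to 2.00.

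Fads3 (ENSRNOG00000020385, chr1:226091774-226108332, plus strand), which desaturates sphingoid bases rather than polyunsaturated chains, had 627 and 626 counts in the Pdk3 libraries, against 592 and 582 in the mock libraries. The groups did not overlap, but the difference was 1.07-fold (log2 0.09 ± 0.03) with a counting interval of the ratio of 0.985 to 1.16. When libraries were scaled to level ribosomal protein genes, its log2 fold change was 0.02. Fads1 counts were 1.12 and 1.13 times those of Fads3 with Pdk3, against 0.608 and 0.579 times with mock. Fads6, a family gene outside the 10, fell, with 131 and 131 counts with Pdk3, against 170 and 165 with mock (log2 fold change -0.35 ± 0.07, limma adjusted p = 0.0125).

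Of the member elongases in the table, Elovl5 stood moderately higher with Pdk3 and Elovl1 differed little. Elovl5 (ENSRNOG00000006331, chr8:85259982-85285983, plus strand) lengthens polyunsaturated chains between the Fads2 and Fads1 steps. It had 379 and 377 counts in the Pdk3 libraries, against 319 and 311 in the mock libraries. The groups were separate by 58 counts, and the log2 fold change was 0.26 ± 0.04, or 1.20-fold. Elovl1 (ENSRNOG00000028448, chr5:137255908-137260483, plus strand), which makes very long saturated chains for sphingolipids, had 324 and 327 counts with Pdk3, against 354 and 320 with mock. Here the groups overlapped, and the log2 fold change was -0.05 ± 0.06. Without Mock 1 it was 0.02, so even its sign rests on that library. Elovl7 had 123 and 133 counts with Pdk3, against 115 and 110 with mock (log2 fold change 0.18 ± 0.09, limma adjusted p = 0.177). Elovl4 had 11 and 22 counts with Pdk3, against 24 and 16 with mock (adjusted p = 0.576), and Elovl2 had 0 and 1 with Pdk3, against 2 and 3 with mock, under the limit for the fit.

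**Figure D2:**
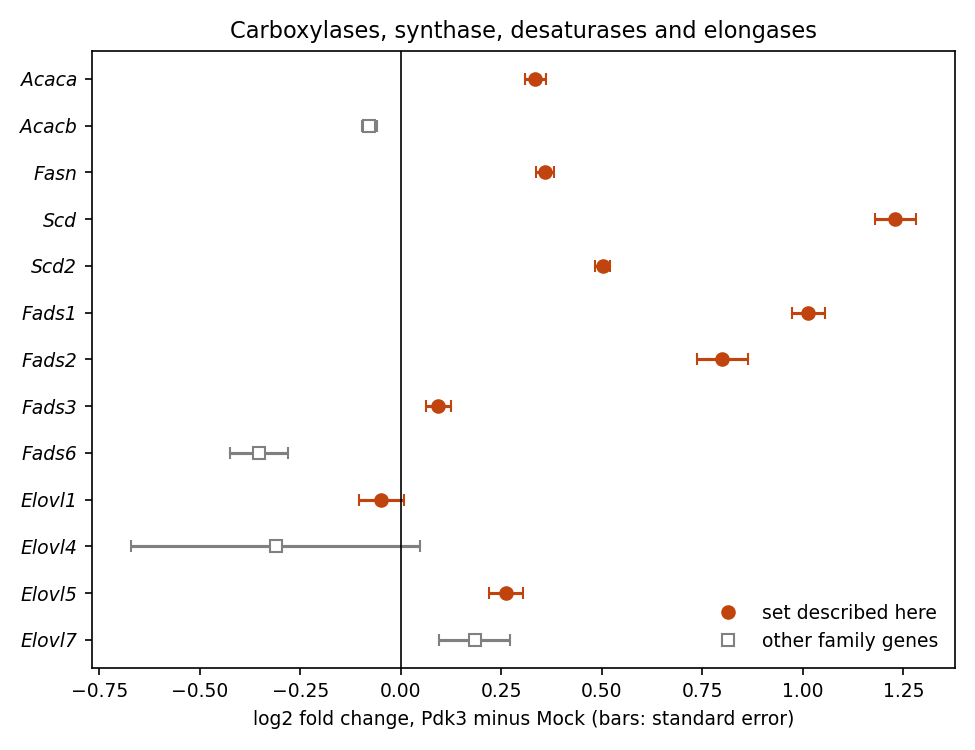
Log2 fold changes, Pdk3 minus mock (horizontal axis), with limma standard errors, of the carboxylase, synthase, desaturase and elongase genes that entered the fit. Filled circles are the members and open squares the other family genes. Scd, Fads1 and Fads2 lie farthest right, at 1.23, 1.01 and 0.80, and Fads6, Elovl4 and Acacb lie left of 0.

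The Fads genes form a cluster of 157 kb on chromosome 1 (rn6), with 6.08 kb between Fads3 and Fads2 and 81.5 kb between Fads2 and Fads1. Of the other tested genes within 100 kb, Fen1, a flap endonuclease of DNA replication and repair, lies 2.38 kb beyond the end of Fads1 and runs towards it on the minus strand (ENSRNOG00000020531, chr1:226251518-226255886). Fen1 rose, with 402 and 414 counts in the Pdk3 libraries, against 186 and 179 in the mock libraries (2.24-fold, log2 1.16 ± 0.05, limma adjusted p = 1.65e-05). Whether reads run over from one of these converging genes into the other was not tested, and the sources used here do not give the strand setting of the counting. The other 5 neighbours (Fth1, Rab3il1, Myrf, Dagla and AABR07006258.2) failed to pass, and their log2 fold changes lay between -0.15 and 0.06. Fth1, the ferritin heavy chain gene, had 476 and 453 counts with Pdk3, against 462 and 432 with mock. Beside the Scd genes, which lie 87.7 kb apart, the tested neighbour Sec31b did not pass either (160 and 160 with Pdk3, against 155 and 152 with mock, adjusted p = 0.580). Sec31b was the only tested neighbour of the Scd genes, and a shared effect on either region was not tested.

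**Figure D3:**
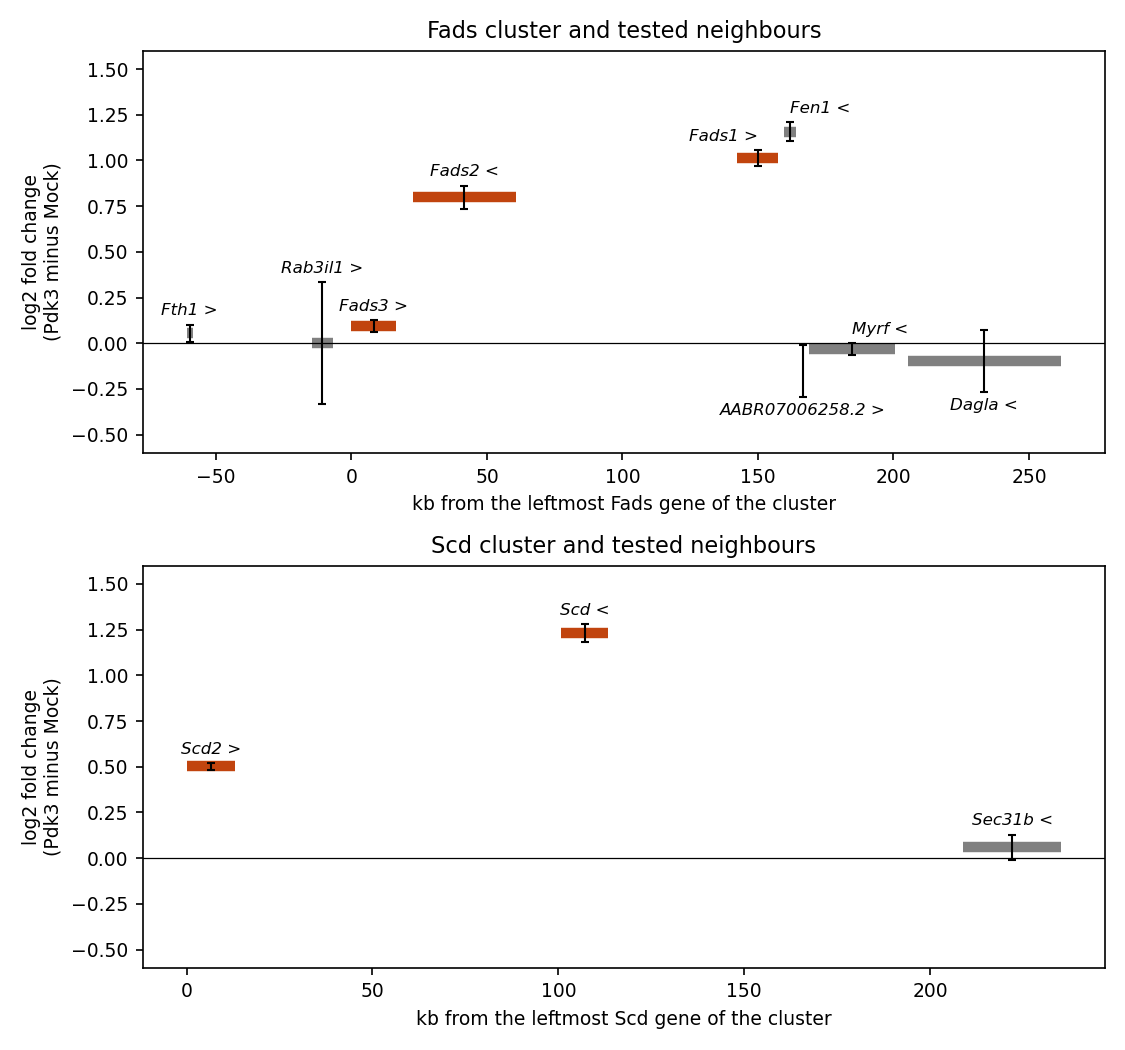
Log2 fold change, Pdk3 minus mock (vertical axis, error bars are limma standard errors), of the tested genes in and within 100 kb of the Fads cluster (top) and the Scd cluster (bottom), against distance in kb from the leftmost cluster gene. Bars span the genes, members are coloured, and > or < marks the plus or minus strand. Fads1, Fads2 and Fen1 stand between 0.80 and 1.16 and the other neighbours lie near 0.

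Other genes of the pathway, which are not among the 10, were tested in the same fit. Their lists were drawn up with earlier results of these data known. Calls and adjusted p values within these lists are therefore a description, not independent support for the members. In that fit 11.7% of all genes rose and 11.3% fell, and a share near these is no result about a list. Leaving out any 1 of the libraries brought the limma calls to 0 in the whole table, while 1554 to 1645 were higher and 1349 to 1727 lower at an unadjusted p under 0.05. Scaled to level ribosomal protein genes, 945 genes were higher and 2998 lower, against 1496 and 1449 as designed.

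Genes that feed the pathway showed small and mixed changes. Of 13 tested genes of precursor and NADPH supply, 3 rose (23.1%) and 2 fell (15.4%), with a median log2 fold change of 0.01. Mid1ip1, which helps acetyl-CoA carboxylase to polymerise, rose 1.20-fold (359 and 379 with Pdk3, against 305 and 310 with mock, limma adjusted p = 0.00719). Acly, the citrate lyase that supplies cytosolic acetyl-CoA, rose 1.12-fold (1102 and 1092 with Pdk3, against 995 and 971 with mock, adjusted p = 0.00412). Mdh1, the cytosolic malate dehydrogenase, rose 1.12-fold (876 and 865 against 781 and 768 with mock, adjusted p = 0.00436). Besides Acacb, Mlycd fell, the enzyme that degrades malonyl-CoA (397 and 394 with Pdk3, against 475 and 479 with mock, log2 -0.27 ± 0.04, adjusted p = 0.00213). The NADPH-producing enzymes Me1 and Idh1 did not pass, with log2 fold changes of 0.01 and -0.04.

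Elongation needs 3 further enzymes after the elongase, which complete its cycle. Of 16 tested genes of the cycle, its electron donors and other desaturases, 4 rose (25.0%) and 1 (Fads6) fell (6.25%), and the median was 0.06. Hsd17b12, the ketoacyl reductase, rose 1.43-fold (350 and 341 counts with Pdk3, against 231 and 253 with mock, adjusted p = 0.000948). The dehydratase genes Hacd2 and Hacd1 rose 1.21-fold and 1.16-fold, and the dihydroceramide desaturase gene Degs1 1.14-fold (adjusted p = 0.0274, 0.0220 and 0.0128). With the counting floor the calls of Hacd1 and Hacd2 ended (adjusted p = 0.0666 and 0.0569), and those of Hacd1, Hacd2 and Degs1 ended without a filter, without an intensity trend and with ribosomal protein scaling. Tecr, the last reductase of the cycle, did not pass (log2 0.03, adjusted p = 0.590). In the separate mitochondrial pathway, which makes the lipoate precursor, 0 of 10 tested genes rose (limma, also 0 at an unadjusted p under 0.05) and 1 fell, Acsf3, a malonyl-CoA synthetase (log2 -0.33 ± 0.07, adjusted p = 0.0115).

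Downstream, 4 of 28 tested genes of acyl-CoA formation and esterification rose (14.3%) and 2 fell (7.14%), shares near those of all genes tested, with a median of 0.03. Lpcat1, which acylates lysophosphatidylcholine, rose 1.63-fold (387 and 414 with Pdk3, against 244 and 248 with mock, adjusted p = 0.000122). The acyl-CoA synthetase genes Acsl4 and Acsl3 rose 1.23-fold and 1.21-fold (adjusted p = 0.000414 and 0.00103). Acsl4 prefers arachidonate, the product of the Fads1 step. Lpcat3, which places such chains in phospholipids, rose 1.10-fold, with an adjusted p of 0.0253 that became 0.152 with the counting floor, which ended the call. Gpam, which starts glycerolipid synthesis at the mitochondrion, fell (613 and 608 with Pdk3, against 836 and 848 with mock, log2 -0.46 ± 0.03, adjusted p = 5.49e-05). Lpin1, a phosphatidate phosphatase, fell as well (393 and 404 against 484 and 497 with mock, log2 -0.30 ± 0.04, adjusted p = 0.00173).

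Peroxisomes shorten very long chains, the last step towards docosahexaenoate. Of 11 tested genes, 4 fell (36.4%) and 1 rose (9.09%), with a median of -0.18. Acox3, an acyl-CoA oxidase gene, fell (322 and 300 counts with Pdk3, against 464 and 455 with mock, log2 -0.56 ± 0.05, limma adjusted p = 0.000249). Hsd17b4, whose enzyme takes the middle steps of the shortening cycle, fell as well (623 and 626 with Pdk3, against 699 and 718 with mock, log2 -0.18 ± 0.03, adjusted p = 0.00531). The thiolase gene Scp2 had 921 and 860 counts with Pdk3, against 1007 and 1028 with mock (log2 -0.19 ± 0.04, adjusted p = 0.00830).

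Among 29 tested genes of SREBP processing and other lipogenic regulators, 6 rose (20.7%) and 7 fell (24.1%), with a median of -0.04. Srebf2, the SREBP gene linked mainly to sterol synthesis, rose 1.32-fold (1078 and 1134 with Pdk3, against 844 and 835 with mock, adjusted p = 0.000159). Insig1, which holds SREBP in the endoplasmic reticulum and is itself an SREBP target, rose 1.46-fold (387 and 392 against 277 and 258 with mock, adjusted p = 0.000375). Srebf1, the SREBP gene linked mainly to fatty acid synthesis, was picked out after its values were seen and rose 1.30-fold (341 and 365 with Pdk3, against 291 and 253 with mock, adjusted p = 0.00968). Without an intensity trend or without a filter on low values the call of Srebf1 ended, as did those of Rxrb and Rxra, and without the trend that of Mlxip. Lower were Nr1h2, a liver X receptor gene, Mlxip, which encodes a glucose-sensing factor, and the retinoid X receptor genes Rxrb and Rxra, with log2 fold changes between -0.27 and -0.22 (adjusted p = 0.00306, 0.00488, 0.0102 and 0.0312). With the replicate numbers as a block, Rxra no longer passed and 4 genes of the list fell. Scaled to level ribosomal protein genes, 3 rose and 11 fell.

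Cholesterol synthesis, the other arm of the SREBP programme, is the nearest comparison. Of its 20 tested enzymes, 17 rose (85.0%) and 1 fell (5.00%), and the median log2 fold change was 0.48, against 0.36 for the 9 fatty acid genes. The 2 lists were known to be high before they were compared here. The share of cholesterol enzymes that rose and their adjusted p values are therefore a description, not an independent result. No test of the difference between the 2 lists was made. Hmgcs1 rose 1.44-fold (1420 and 1376 with Pdk3, against 969 and 972 with mock), Cyp51 1.40-fold, Fdft1 1.46-fold and Sqle by 0.59 on the log2 scale (limma adjusted p between 1.99e-05 and 3.32e-05). Tm7sf2, a sterol reductase gene, was the one that fell (116 and 108 with Pdk3, against 153 and 163 with mock, adjusted p = 0.00573). The highest cholesterol enzyme had a log2 fold change of 0.80, equal to that of Fads2, and the values of Scd and Fads1 lay above it.

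**Figure D4:**
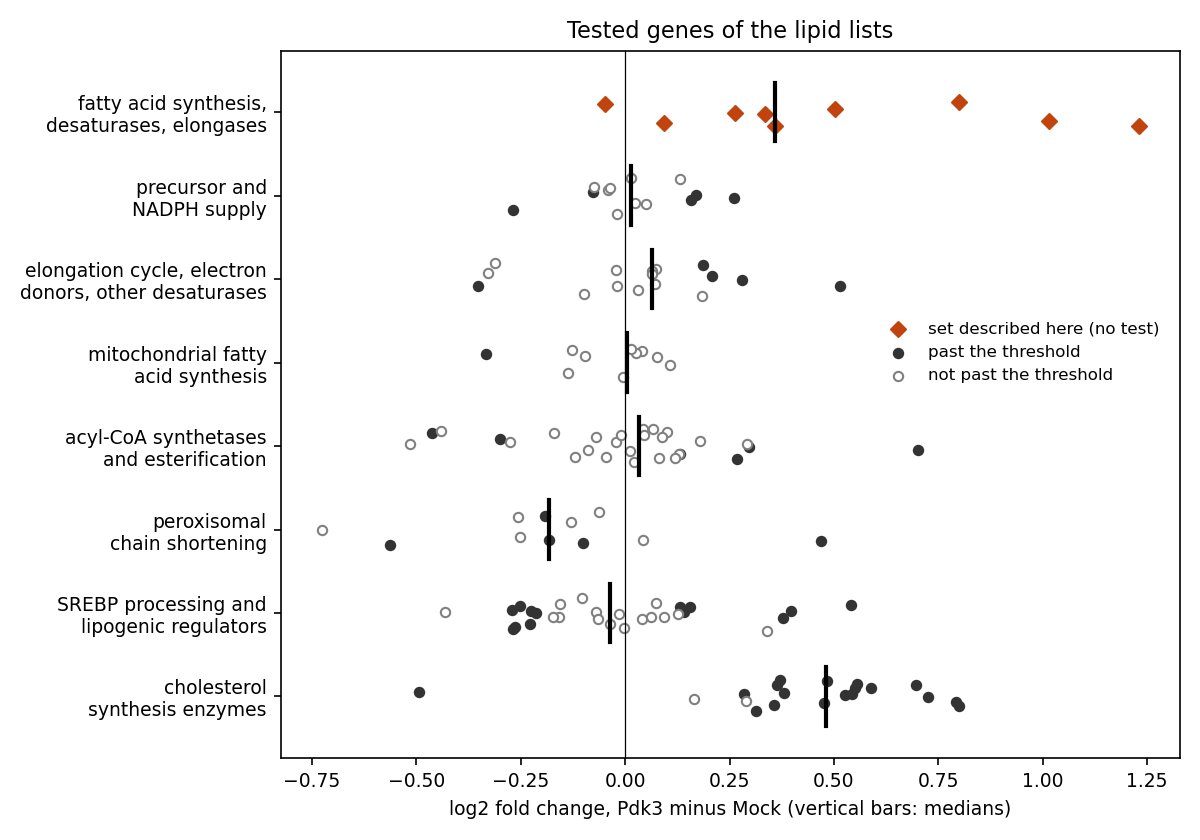
Log2 fold changes, Pdk3 minus mock (horizontal axis), of the tested genes of each lipid list, with medians as vertical bars. Filled circles passed the limma threshold (adjusted p under 0.05), open circles did not, and diamonds are the 9 members, shown without a test. The medians of the members (0.36) and of cholesterol synthesis (0.48) stand apart from the other medians, which lie between -0.18 and 0.06. Both of these lists were known to be high beforehand.

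Some markers of other cell types in the cultures differed between the groups as well. Summed normalised counts of 7 smooth muscle and pericyte markers were 5269 to 5335 in the Pdk3 libraries, against 4709 to 4745 in the mock libraries. Those of 8 macrophage markers were 863 to 888 with Pdk3, against 1074 to 1136 with mock, and those of 5 mesothelial markers 169 to 178 against 244 to 248 with mock. Markers within a list did not all move alike. Of the mesothelial markers, Krt19 and Lrrn4 were lower with Pdk3 (log2 fold changes -0.97 and -0.75), while Wt1 and Msln were not (0.44 and 0.09). The smooth muscle and pericyte markers Cnn1, Cspg4, Acta2 and Tagln had log2 fold changes between 0.19 and 0.35. Myh11, Rgs5 and Pdgfrb had 0.04, -0.21 and -0.04. Values of the macrophage markers lay between -0.65 and -0.12. Sums for 7 fibroblast markers (5265 to 5416 with Pdk3, against 5416 to 5484 with mock) met at their edges. Among these, Dcn, Tcf21, Lum and Postn had log2 fold changes between -0.31 and -0.13. Col1a1 and Col3a1, with the most counts, had 0.01 and -0.01, and Pdgfra had 0.24. Sums for 5 endothelial markers (834 to 868 against 861 to 932 with mock) overlapped. Kdr, with the most counts of these, had 0.13, while Cdh5, Tek, Egfl7 and Vwf had -0.52, -0.34, -0.24 and -0.07. Of 4 Schwann cell markers the sums were 70 to 79 with Pdk3, against 97 to 101 with mock. Adipocytes are cells with much Scd and Fasn. The 5 adipocyte markers measured summed to 286 to 300 with Pdk3, against 295 to 322 with mock, 2 of the 5 stayed under 10 in every library, and 0 of the 3 tested passed (limma, also 0 at an unadjusted p under 0.05). The sums cover the markers with a row in the table, 5 of 10 for adipocytes, 5 of 7 for endothelium, 4 of 6 for Schwann cells, 7 of 8 for fibroblasts, 9 of 10 for cardiomyocytes and all of the other lists. The remaining markers were not analysed here. None of the markers with a row was at 0 in all libraries. The part of cell composition in the members' values was not tested.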

How the data were processed

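RNA from cultured neonatal rat cardiomyocytes was sequenced in 4 libraries, made from 1 µg of total RNA with a stranded mRNA kit, per the labels' protocols. Reads were trimmed, aligned, counted and scaled with tools that the submitters' processing notes list without settings: STAR 2.6.1d, featureCounts 1.6.5, DESeq2 1.26.0, Trimmomatic 0.39 and FastQC, on build rn6. The deposited values were used as a score: the authors scaled read counts per gene between libraries and rounded them, so raw depth is unknown. Exon lengths were not used, so levels are compared within a gene only. Coordinates are the table's, with rn6. Values were tested with limma 3.58.1 in R 4.3.3 (eBayes with an intensity trend, 2 residual and 5.56 prior degrees of freedom), two-sided, with Benjamini-Hochberg adjustment over all genes tested. The fit was tested on simulated data with counting noise. That spread is wider than the one within these pairs, so the simulation gives no error rate for these data. The members and lists were chosen with earlier results of these data known. Named are the 10 genes, Pdk3, their families, tested neighbours within 100 kb, and, by smallest p, up to 4 called genes of each list in its main direction and 2 in the opposite one. Some cell type markers are named as well, without their calls. Lpcat3 is on 2 lists. A few genes of the lists are counted but not reported here by name. Floored at counting noise means that limma's p was replaced by an exact binomial p on the summed values wherever that was larger. Intervals of ratios use the same sums and cover counting error only. Promoters are RefSeq's, build GRCr8.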

Additional observations from a re-analysis of the deposited data

How the results depend on the processing

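Across the 13 alternatives, log2 fold changes ranged from 1.16 to 1.28 for Scd, 0.94 to 1.06 for Fads1, 0.73 to 0.85 for Fads2, 0.43 to 0.51 for Scd2, 0.28 to 0.39 for Fasn, 0.26 to 0.35 for Acaca, 0.19 to 0.28 for Elovl5, 0.02 to 0.11 for Fads3 and -0.12 to 0.02 for Elovl1. Of the 33 named calls outside the members, 3 ended floored at counting noise, 10 without a filter, 16 without an intensity trend, 4 with ribosomal protein scaling (Degs1, Hacd1, Hacd2 and Lpcat3) and 1 (Rxra) with the replicate block, and 0 with the other pseudocounts, TMM scaling or a minimum of 50.

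With any 1 library left out, limma called 0 to 0 genes in every list and over all genes, with 1 residual degree of freedom fewer than the full fit, while 1554 to 1645 genes were higher and 1349 to 1727 lower at an unadjusted p under 0.05 (16 to 18 cholesterol enzymes higher). Without a filter on low values, 737 genes were higher and 539 lower, and 1 supply gene fell, 1 elongation gene rose, 0 mitochondrial genes fell, 2 peroxisomal genes fell, and 3 regulators rose and 2 fell. Without an intensity trend, 526 were higher and 325 lower, with 0 supply genes rising and 1 falling, 1 elongation gene rising, 0 mitochondrial genes falling, 2 esterification genes rising, 1 peroxisomal gene falling, and 2 regulators rising and 1 falling. With the counting floor, 1032 genes rose and 1027 fell, and 2 elongation genes and 3 regulators rose.

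Scaling to the median of 67 ribosomal protein genes, chosen after seeing the data, moved the median gene from -0.01 to -0.08 and gave 945 higher and 2998 lower, against 1496 and 1449 as designed. Then 1 elongation gene rose, 2 mitochondrial and 7 esterification genes fell, and 3 regulators rose and 11 fell. Replicate 1 libraries deviated together with r = 0.04 across genes, so the numbers are not shown to pair the libraries. With the replicate block, 1374 genes were higher, 1298 lower, and 4 regulators fell. The cause of these differences was not tested. With values scaled and rounded, true depth is not known.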
